A study of Mus musculus with 5 samples.

Results

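Lipoprotein lipase and the fatty acid uptake genes were followed as a set of 9 genes, chosen by name for their part in lipoprotein hydrolysis and fatty acid uptake, out of 78334 gene identifiers in the deposited count table. The genes are Lpl, Lipg, Gpihbp1, Angptl4, Cd36, Fabp4, Vldlr, Slc27a1 and Slc27a4. All 9 passed the filter on low counts, which left 24779 genes to be tested. Messenger RNA of visceral adipose tissue was sequenced in 5 libraries. All mice were males of the inbred strain C57BL/6. The resveratrol group had 2 libraries from mice fed for 8 weeks on a chow deriving 60% of calories from fat and dosed afterwards with resveratrol, a polyphenol of grapes, through a gastric tube (2.25 mg/kg, daily for 28 days). The 2 obesity libraries came from mice on that diet that were dosed with vehicle. The only control library came from standard chow feeding, also with vehicle. By the labels, diet feeding began at an age of 8 weeks and dosing at 16 weeks. Whether each library is a mouse of its own is not in the labels, and p-values measure only the spread between these libraries, which may be technical.

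Fat cells take up little triglyceride as such. Lipoprotein lipase, made mainly by the fat cell, is carried to the capillary wall by the endothelial anchor GPIHBP1 and there frees fatty acids from chylomicrons and very low density lipoproteins. ANGPTL4 inactivates the enzyme, endothelial lipase from Lipg acts mainly on the phospholipids of high density lipoproteins, CD36 and the fatty acid transport proteins of the Slc27 family bring fatty acids into cells, and FABP4 binds them inside. The VLDL receptor binds whole particles rich in triglyceride and helps to bring them to the lipase.

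Levels are in CPM, which scales each count to the TMM-adjusted size of its library. Errors after ± are SDs between 2 libraries, and SE stands for the standard error of a fitted difference. Total counts ranged from 19540961 to 27026597. Tissue markers differed widely between libraries, also within the resveratrol group. The 12 adipocyte markers summed to 5443 and 23243 CPM in resveratrol libraries 1 and 2, 18287 and 23128 CPM in obesity, against 384 CPM in control. In the control library the 12 epididymis markers summed to 63474 CPM, with Gpx5, a secreted epididymal peroxidase gene, at 28097 CPM, which goes against its label of visceral fat. Of these 12 markers 4 were at 0 in resveratrol library 1, 12 in resveratrol library 2, 2 in obesity library 1 and 11 in obesity library 2. In resveratrol library 1 the 9 smooth muscle markers summed to 47770 CPM, with 1106 CPM in resveratrol library 2, 1375 and 1073 CPM in obesity and 2356 CPM in control. Striated muscle markers were also high there, with a sum of 1093 CPM against 18.4 to 96.2 CPM in the other libraries. For every gene here, fewer cells of a type and less RNA per cell cannot be told apart in bulk tissue.

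Regulatory sequence was looked up in the RefSeq promoter table on build GRCm38.p6, and 4 of the 9 genes had a window there, namely Cd36, Vldlr, Slc27a1 and Slc27a4. Lpl, Lipg, Gpihbp1, Angptl4 and Fabp4 had none. Cd36 and Slc27a4 are shown because these membrane genes of fatty acid uptake stood at the opposite ends of variation, Cd36 spanning a 189-fold range over the 5 libraries and Slc27a4 lying between 56.2 and 84.1 CPM in all of them. The 250 bases before a RefSeq start are given 5′ to 3′ on the strand of the gene, at chr5:17835897-17836146 on the minus strand for Cd36 and at chr2:29802384-29802633 on the plus strand for Slc27a4, with matches to the motifs listed after them in capitals.
Cd36: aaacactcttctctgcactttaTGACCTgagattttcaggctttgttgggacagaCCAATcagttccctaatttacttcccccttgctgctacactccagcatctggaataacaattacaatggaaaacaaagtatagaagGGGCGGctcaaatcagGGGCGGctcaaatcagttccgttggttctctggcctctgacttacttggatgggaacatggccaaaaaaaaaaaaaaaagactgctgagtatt
Slc27a4: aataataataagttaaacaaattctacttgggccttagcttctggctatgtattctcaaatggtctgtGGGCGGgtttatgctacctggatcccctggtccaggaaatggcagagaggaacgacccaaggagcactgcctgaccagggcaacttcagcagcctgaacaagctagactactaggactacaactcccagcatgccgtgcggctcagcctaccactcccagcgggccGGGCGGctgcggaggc
Motifs were searched on both strands, and only exact matches to the letters given were counted. The PPAR response element, a pair of AGGTCA motifs with 1 base between them, was in 0.0335% of all 32851 windows of 250 bases, and the single nuclear receptor motif AGGTCA, which is part of it, was in 14.0%. The CCAAT box, CCAAT, was in 33.8%, the GC box, GGGCGG, in 32.7% and the TATA box, TATAAA, in 12.4%. The Cd36 window held 1 AGGTCA match, on the strand opposite to the gene and so printed as its reverse complement TGACCT, 1 CCAAT match and 2 GC box matches, and the Slc27a4 window held 2 GC box matches. Neither window held an exact match to the PPAR response element or the TATA box. Looser forms of these elements were not searched for. GC content was 43.2% in the Cd36 window and 54.4% in the Slc27a4 window, against a median of 52.4% over all windows. Cd36 has several known starts, and this window belongs to 1 of them.

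Lpl, the lipoprotein lipase gene (ENSMUSG00000015568), was at 1685 and 10574 CPM with resveratrol, 10996 and 12193 CPM in obesity, against 106 CPM in control, where the 95% exact interval was 103 to 110 CPM. Such intervals cover counting error only. Among all genes ordered by CPM it ranked 47 and 4 with resveratrol, 3 and 2 in obesity and 1434 in control. The control library was thus lowest, resveratrol library 1 stood between, and the other 3 libraries lay close together. The log2 difference of obesity over control was 6.77 (SE 2.06).

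Gpihbp1, the capillary anchor of the lipase (ENSMUSG00000022579), was at 36.1 and 190 CPM with resveratrol, 125 and 114 CPM in obesity, against 14.6 CPM in control. The resveratrol libraries lay on either side of both obesity libraries. Gpihbp1 is made by capillary endothelium, and the 10 endothelial markers, among them the junction gene Cldn5 and the TGF-beta co-receptor gene Eng, summed to 338 and 1878 CPM with resveratrol, 1017 and 862 CPM in obesity, against 266 CPM in control. Set against that sum in the same library, Gpihbp1 was at 10.7% and 10.1% with resveratrol, 12.3% and 13.2% in obesity and 5.50% in control. The resveratrol libraries differed 5.26-fold in Gpihbp1 CPM but were nearly level in this share, and the obesity mean of the share was 2.32-fold above control. That order depended on the markers. The 6 capillary markers, of which Aqp7 is also expressed by fat cells, summed to 104 and 765 CPM with resveratrol, 652 and 653 CPM in obesity, against 126 CPM in control. In control Car4 alone made 110 CPM of that sum, and no other capillary marker was above 7.60 CPM. Car4 was at 8.27 to 56.1 CPM in the other libraries. The control share on this list thus rests mostly on Car4. Against their sum Gpihbp1 was at 34.6% and 24.8% with resveratrol, 19.2% and 17.4% in obesity and 11.6% in control, so that both resveratrol libraries lay above both obesity libraries and not below them. Set against the adipocyte markers, Gpihbp1 went the other way, at 0.685% and 0.492% in obesity and 3.81% in control.

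Angptl4, the gene of the lipase inhibitor (ENSMUSG00000002289), had 127 and 994 CPM with resveratrol, 917 and 1086 CPM in obesity, against 12.5 CPM in control. It followed Lpl more closely than any other of the 36 pairs of these genes, with a distance of 0.486 between their centred log2 profiles over the 5 libraries. The ratio of Lpl CPM to Angptl4 CPM was 13.3 and 10.6 in the resveratrol libraries, 12.0 and 11.2 in the obesity libraries and 8.52 in the control library, although Lpl itself spanned a 115-fold range. Both genes were lowest in the control library, next lowest in resveratrol library 1 and highest in obesity library 2. The values share their libraries and depth, and the closeness is a description without a test.

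Lipg, the endothelial lipase gene (ENSMUSG00000053846), ran against the other lipase. It was at 0.909 and 0.817 CPM with resveratrol, 0.939 and 1.38 CPM in obesity, from 18 to 29 counts each, and at 147 CPM from 4222 counts in the control library. The 4 libraries of mice on the high-fat diet lay within a narrow low range, and the obesity mean was 127-fold below the control library. The log2 difference of obesity over control was -6.98 (SE 0.393), and edgeR's quasi-likelihood test gave a Benjamini-Hochberg adjusted p of 0.0999, which equals the smallest adjusted p of any gene in that comparison. Despite its name Lipg did not go with the endothelial markers, at 0.0435% to 0.269% of their sum in the resveratrol and obesity libraries and 55.3% in control. The epididymis marker sum moved with Lipg there, at 21.8 and 0.0952 CPM in obesity against 63474 CPM in control. In resveratrol library 1 that sum was 3828 CPM, of which Crisp1, a secreted protein gene of the male tract, made 3397 CPM, and Lipg stayed at 0.909 CPM. The part of epididymal transcripts in the Lipg level was not tested.

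**Figure D1:**
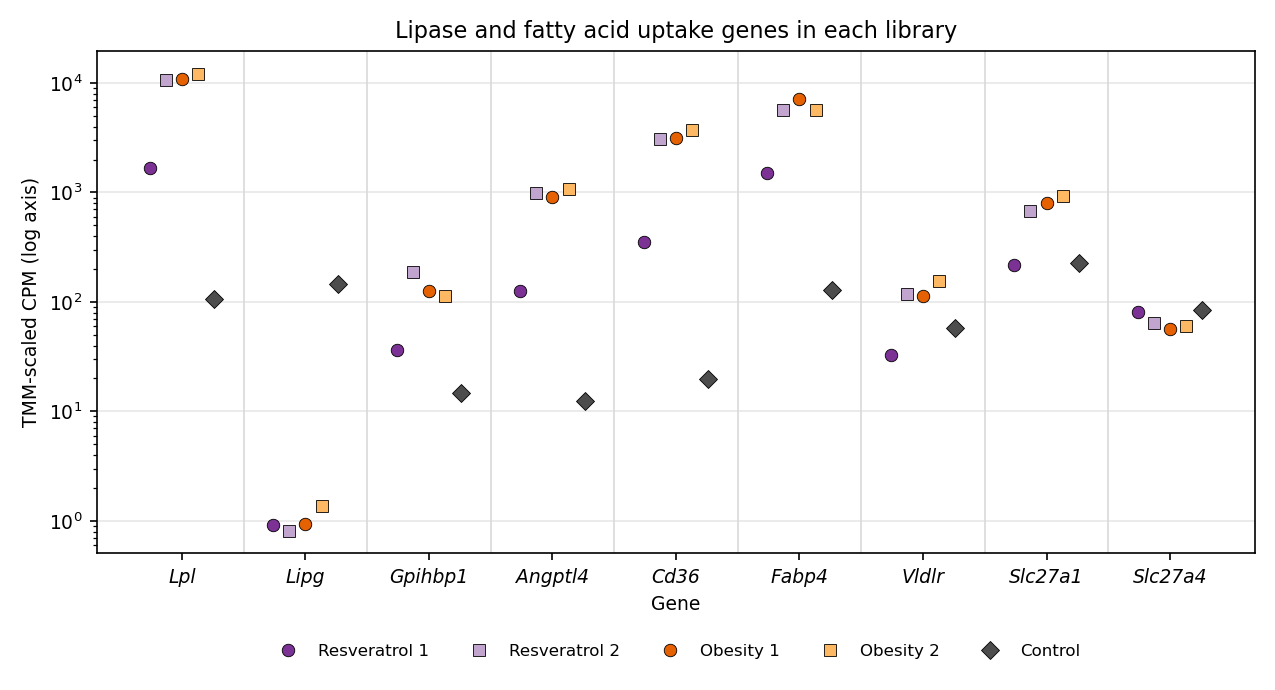
TMM-scaled CPM on a log axis for each of the 9 genes, with 1 point per library and the groups in the order resveratrol, obesity and control. Lpl, Angptl4, Cd36 and Fabp4 show the control library lowest and resveratrol library 1 next, Lipg is at 0.817 to 1.38 CPM except in the control library at 147 CPM, and Slc27a4 stays between 56.2 and 84.1 CPM.

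Cd36, the fatty acid translocase gene (ENSMUSG00000002944), was at 353 and 3111 CPM with resveratrol, 3171 and 3755 CPM in obesity, against 19.8 CPM in control. It had the widest range among the genes that were low in the control library, and the resveratrol libraries differed from each other 8.81-fold, more than for any other of the 9 genes. The log2 difference of obesity over control was 7.45 (SE 2.10). Fabp4, the fatty acid binding protein gene of fat cells (ENSMUSG00000062515), was at 1497 and 5622 CPM with resveratrol, 7081 and 5622 CPM in obesity, against 129 CPM in control. Resveratrol library 2 and obesity library 2 had equal Fabp4 levels to 4 digits. The log2 difference of obesity over control was 5.62 (SE 1.54).

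The Slc27 genes encode transport proteins that activate fatty acids as they enter, and the 2 in this set did not follow each other. Slc27a1 (ENSMUSG00000031808), whose product is the insulin-responsive transporter of muscle and fat, was at 220 and 676 CPM with resveratrol, 796 and 932 CPM in obesity, against 228 CPM in control. Resveratrol library 1 and the control library were thus nearly level for Slc27a1, with adipocyte marker sums of 5443 and 384 CPM. Slc27a4 (ENSMUSG00000059316), which encodes a broadly expressed transporter, stood at 81.8 and 64.8 CPM with resveratrol, 56.2 and 59.7 CPM in obesity, against 84.1 CPM in control. It was the single gene of the 9 that was higher in both resveratrol libraries than in both obesity libraries. The ratio of Slc27a1 CPM to Slc27a4 CPM was 2.69 and 10.4 in the resveratrol libraries, 14.2 and 15.6 in the obesity libraries and 2.71 in the control library.

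Vldlr, the VLDL receptor gene (ENSMUSG00000024924), was at 32.6 and 119 CPM with resveratrol, 113 and 156 CPM in obesity, against 57.3 CPM in control. Resveratrol library 1, not the control library, was lowest for Vldlr and for Slc27a1. Their profiles were the second closest pair, at a distance of 0.648. The log2 difference of obesity over control was 1.23 (SE 0.886) for Vldlr, 1.92 (SE 0.901) for Slc27a1 and -0.54 (SE 0.297) for Slc27a4.

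Between genes, levels were compared per kilobase of the longest principal transcript in GENCODE M21, an annotation on another build than the deposited counts. On that scale Fabp4 stood first in obesity, at 7089 ± 1152 CPM per kb, then Lpl at 2818 ± 206 and Cd36 at 1019 ± 121 CPM per kb. Slc27a1 at 309 ± 34.4 and Angptl4 at 303 ± 36.3 CPM per kb did not differ beyond their spread, and Gpihbp1 followed at 145 ± 9.89 CPM per kb. Vldlr at 16.9 ± 3.74 and Slc27a4 at 14.3 ± 0.611 CPM per kb were also within their spread of each other, and Lipg was last at 0.306 ± 0.0824 CPM per kb (SD, n = 2 throughout). In the control library the order differed, with Fabp4 at 144, Slc27a1 at 81.5, Lipg at 38.9 and Lpl at 25.8 CPM per kb.

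Each gene was also expressed as a share of the summed CPM of the 12 adipocyte markers, among them the hormone gene Adipoq and the lipid droplet gene Plin1. Fabp4 was at 27.5% and 24.2% of that sum in the resveratrol libraries, 38.7% and 24.3% in obesity and 33.6% in control. Its 54.9-fold range in CPM thus narrowed to 1.60-fold, and the obesity libraries alone spanned nearly all of it. Lpl was at 31.0% and 45.5% with resveratrol, 60.1% and 52.7% in obesity and 27.7% in control. Cd36 was at 6.49% and 13.4% with resveratrol, 17.3% and 16.2% in obesity and 5.17% in control. Angptl4 was at 2.33% and 4.28% with resveratrol, 5.01% and 4.70% in obesity and 3.25% in control. Vldlr was at 0.599% and 0.510% with resveratrol and 0.620% and 0.672% in obesity. So Lpl, Cd36, Angptl4 and Vldlr were lower per adipocyte marker CPM in both resveratrol libraries than in both obesity libraries. How many of all genes were so on this scale was not counted. The gap was widest for Cd36 in resveratrol library 1, at 0.386 of the obesity mean. In that library the marker Cfd made 1449 CPM of the marker sum of 5443 CPM. In the obesity libraries Cfd made 1356 and 1713 CPM of 18287 and 23128 CPM. The shares in resveratrol library 1 thus lean on Cfd, and the order for Vldlr depends on it. In obesity the share was 3.25-fold above control for Cd36, 2.04-fold for Lpl and 1.49-fold for Angptl4, with a single control library and no test. For Vldlr, Slc27a1 and Slc27a4 it was 23.1-fold, 14.1-fold and 77.4-fold below control. In control the markers Pnpla2 and Cfd made 113 and 95.6 CPM of the marker sum of 384 CPM. In obesity library 1 they made 1608 and 1356 CPM of 18287 CPM. The control shares thus rest largely on Pnpla2 and Cfd, and the folds against control were not computed without them. Macrophages also express Lpl and Cd36, and the 10 macrophage markers summed to 450 and 2410 CPM with resveratrol, 2284 and 2302 CPM in obesity, against 182 CPM in control. Their part in these levels was not tested.

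**Figure D2:**
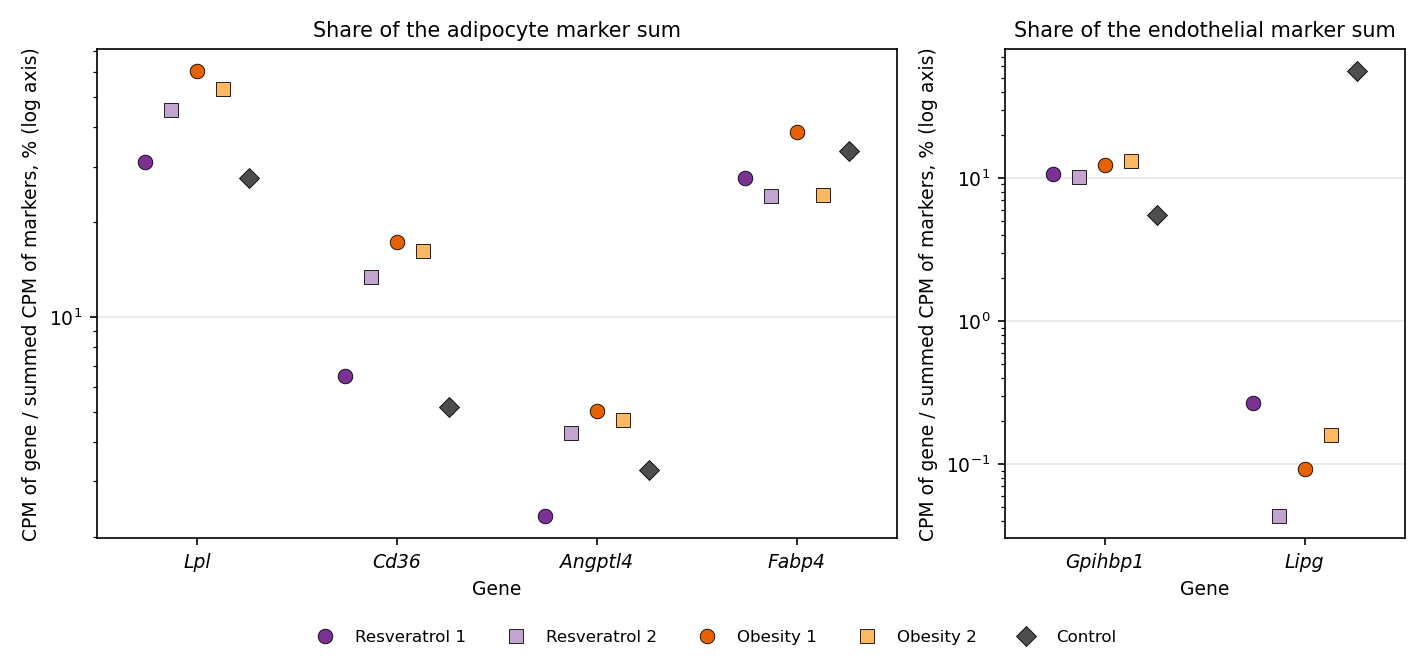
CPM of a gene as a percentage of the summed CPM of the adipocyte markers (left) or the endothelial markers (right) of the same library, on log axes, with 1 point per library. Lpl and Cd36 are lower in resveratrol library 1 and the control library than in the others, Fabp4 lies between 24.2% and 38.7%, and Gpihbp1 lies between 10.1% and 13.2% outside the control library at 5.50%.

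The first comparison was of resveratrol with obesity, the question the series puts. None of the 9 passed the test, which does not show that they were alike in both groups, since each group had only 2 libraries. In the mean, 8 of the 9 were lower and 1 was higher, where 52.8% of all tested genes were higher. The 9 had a median log2 difference of -0.84 against 0.05 over all tested genes. Apart from Lipg, the lower genes were lower in resveratrol library 1 than in resveratrol library 2. Lipg was at 78.3% and 70.4% of its obesity mean in libraries 1 and 2. In resveratrol library 1 the 9 genes stood at a median of 24.3% of their obesity mean, with a range of 10.2% to 141%. In resveratrol library 2 that median was 89.8%, with a range of 70.4% to 159%, and 7 of the 9 were below their obesity mean. Lpl differed by -0.92 (SE 1.17) on the log2 scale, Cd36 by -0.999 (SE 1.16), Fabp4 by -0.84 (SE 0.929), Angptl4 by -0.84 (SE 1.04), Slc27a1 by -0.95 (SE 0.674) and Vldlr by -0.83 (SE 0.688). Gpihbp1 differed by -0.08 (SE 0.823), Lipg by -0.43 (SE 0.312) and Slc27a4 by 0.34 (SE 0.247).

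In edgeR's quasi-likelihood test with Benjamini-Hochberg adjustment 0 of the 9 genes and 0 of all 24779 genes passed 0.05, a background of 0%, and 0 of the 9 had an unadjusted p under 0.05, where 2.34% of all genes did, 1.92% higher and 0.428% lower. DESeq2 called 0 of the 9 and 224 genes in all, 1.16% higher and 0.114% lower among the 17573 genes to which it gave an adjusted p, and limma-voom called 0 of either. Groups did not overlap for 5 of the 9, against 33.7% of all genes, with 1 higher in resveratrol, where 16.9% of all genes were, and 4 lower, where 16.7% were. The 4 were Lpl, Lipg, Cd36 and Slc27a1. Without resveratrol library 1 the log2 differences were -0.12 for Lpl, -0.14 for Cd36, -0.16 for Fabp4, 8.1e-04 for Angptl4, 0.68 for Gpihbp1, -0.17 for Vldlr, -0.34 for Slc27a1, -0.50 for Lipg and 0.17 for Slc27a4, and 0 of them passed. Without resveratrol library 2 the log2 differences were -3.29 for Cd36, -2.77 for Lpl and -1.72 for Gpihbp1. That fit set resveratrol library 1 alone against the obesity pair, so its calls are not given. The smooth muscle sum of 47770 CPM in resveratrol library 1 moved with these values, and its part in them was not tested.

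The second comparison was of obesity with control. Both obesity libraries were above control for 7 of the 9 genes, where 40.8% of all genes were, and below it for Lipg and Slc27a4, where 48.6% were, so that 89.4% of all genes did not overlap. The 9 had a median log2 difference of 3.03 against -0.10 over all tested genes. Cd36, Lpl, Angptl4 and Fabp4 stood 49.2-fold to 175-fold higher in obesity than in control, Gpihbp1 8.16-fold, and Slc27a1 and Vldlr 3.79-fold and 2.35-fold by group means. Slc27a4 was 1.45-fold and Lipg 127-fold lower in obesity. Adipocyte markers moved the same way, with 12 of 12 higher and a median log2 difference of 5.85, and all 12 epididymis markers were lower.

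No gene passed in this comparison in edgeR's quasi-likelihood test, with adjusted p from 0.0999 for Lipg to 0.394 for Vldlr among the 9, and again 0% of all genes. Of the 9, 4 had an unadjusted p under 0.05 and were higher, where 12.6% of all genes did and were, and 1 was lower, where 11.7% were. DESeq2 called 6 of the 9, with Lpl, Gpihbp1, Angptl4, Cd36 and Fabp4 higher, where 12.8% were called of the 20935 genes given an adjusted p there, and Lipg lower, where 8.83% were. More genes passed in edgeR with a resveratrol library left out, but the spread then came from the obesity pair alone. No share over all genes is at hand for those fits, so their calls are not given. The control group is 1 library with epididymal transcripts, and diet and tissue sampled cannot be told apart.

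The third comparison, of resveratrol with control, shares its libraries with the others. In the mean 7 of the 9 genes were higher and Lipg and Slc27a4 lower, where 51.4% of all tested genes were higher. Groups did not overlap for 5 higher and 2 lower, where 37.7% and 41% of all genes, 78.7% together, did not. The 9 had a median log2 difference of 2.95 against 0.05 over all tested genes. Cd36 differed by 6.45 (SE 2.00), Lpl by 5.85 (SE 1.96), Angptl4 by 5.49 (SE 1.72), Fabp4 by 4.79 (SE 1.47), Gpihbp1 by 2.95 (SE 1.18) and Lipg by -7.41 (SE 0.400). Resveratrol library 1 alone was 17.8-fold above control for Cd36, 15.8-fold for Lpl and 2.46-fold for Gpihbp1, but for Slc27a1 it was at 0.964 of control and for Vldlr at 0.570. In edgeR's quasi-likelihood test 0 of the 9 passed, as did 0% of all genes, and Lipg had an adjusted p of 0.134. Unadjusted, 4 were higher with p under 0.05, where 10.5% of all genes were, and 1 lower, where 8.05% were. DESeq2 called 6 of them, 5 higher where 10.3% were called of the 19975 genes given an adjusted p there, and 1 lower where 5.17% were, and limma-voom called Lipg alone, with 0.323% of all genes. With a resveratrol library left out more genes passed in edgeR, but a lone resveratrol library then stood against the lone control library. Those calls are not given.

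**Figure D3:**
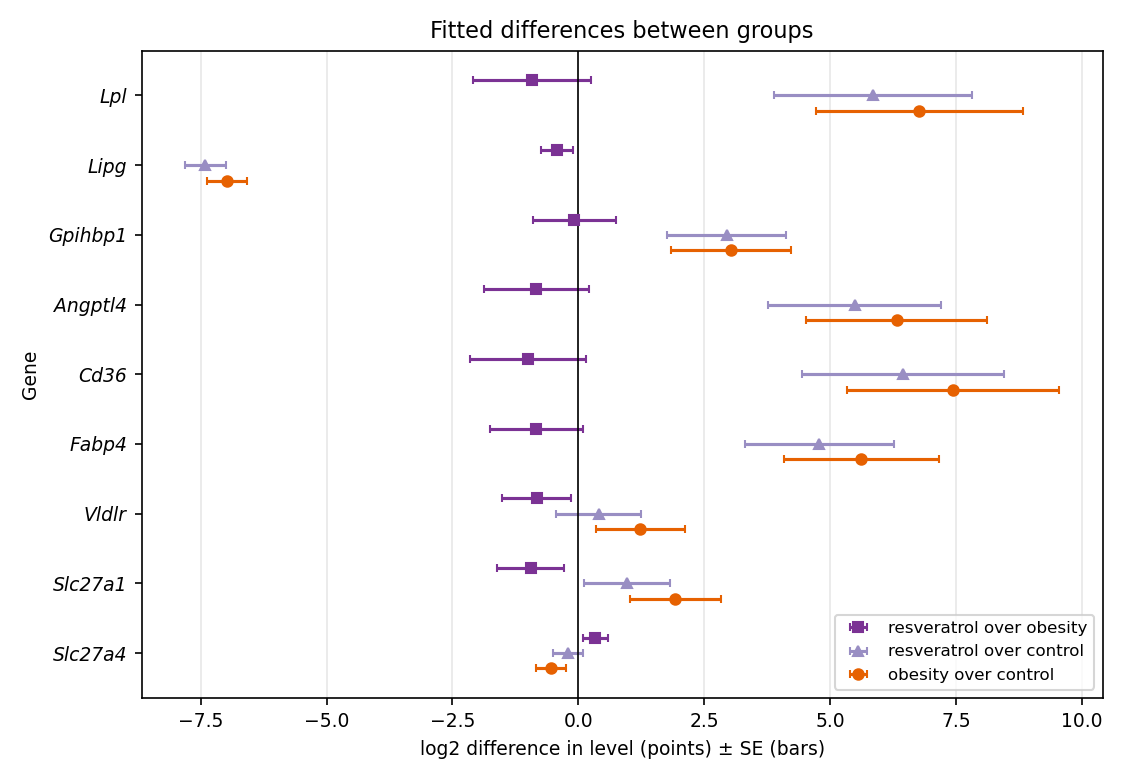
Fitted log2 differences in level (points) with their SE (bars) for the 9 genes in resveratrol over obesity, resveratrol over control and obesity over control. Lipg lies near -7 against control with the SE of 0.393 in obesity over control, the 4 fat cell genes lie between 4.79 and 7.45, and resveratrol over obesity lies between -0.999 and 0.34.

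Other genes of the pathway were read from 4 lists, of lipase partners, lipoprotein receptors, other fatty acid uptake genes and PPAR regulators. Of 64 genes listed 61 were tested. By edgeR's quasi-likelihood test 0 of them had an adjusted p under 0.05 in any comparison, as was so for 0% of all genes. At an unadjusted p under 0.05, 15 of the 61 were higher in obesity than in control, where 12.6% of all genes were, and 6 lower, where 11.7% were. Between resveratrol and obesity 0 did so, where 2.34% of all genes did. With resveratrol 13 were higher than in control, where 10.5% of all genes were, and 7 lower, where 8.05% were. Of all tested genes 46.9% were higher in obesity than in control, with a median log2 difference of -0.10, the background for the direction counts of these lists. Among lipase partners, 13 of 17 tested were higher in obesity than in control and 3 lower, with a median log2 difference of 0.63. Angptl8, whose product takes part in blocking the lipase, was at 1.86 and 7.12 CPM with resveratrol, 19.2 and 12.9 CPM in obesity, against 0.453 CPM in control. It was lower in both resveratrol libraries than in both obesity libraries, by -1.84 (SE 0.781) on the log2 scale. Lipc, the hepatic lipase gene, sided with Lipg, at 0.182 and 0.583 CPM with resveratrol, 0.365 and 0.524 CPM in obesity, against 15.5 CPM in control. Lmf1, the chaperone gene that lipases of this family need to fold, varied little, from 24.6 to 35.3 CPM over the 5 libraries. Pcsk5, a proprotein convertase gene whose product can cleave these lipases, was at 6.04 and 23.3 CPM with resveratrol, 14.1 and 12.4 CPM in obesity, against 158 CPM in control. Hspg2, the perlecan gene of basement membrane, was at 791 and 2012 CPM with resveratrol, 990 and 1798 CPM in obesity, against 113 CPM in control.

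Lipoprotein receptors were split, with 3 of 8 higher and 5 lower in obesity than in control. Lrp1, a large receptor gene for remnant particles, was at 478 and 1483 CPM with resveratrol, 972 and 1582 CPM in obesity, against 82.0 CPM in control. Lrp8, the closest relative of Vldlr, went the opposite way to it, at 1.33 to 2.02 CPM in the resveratrol and obesity libraries, against 11.8 CPM in control. Lsr, a lipoprotein receptor gene of epithelia and liver, was at 19.4 and 5.72 CPM with resveratrol, 4.64 and 3.76 CPM in obesity, against 18.3 CPM in control. Resveratrol library 1 and the control library hold transcripts of other tissues, as given above, whose part was not tested.

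Among the other fatty acid uptake genes 13 of 21 tested were higher in obesity than in control and 8 lower. Cav1, the caveolin gene of the fat cell surface, was at 1287 and 2262 CPM with resveratrol, 2121 and 2328 CPM in obesity, against 58.0 CPM in control. Got2, whose mitochondrial enzyme is also known as the plasma membrane fatty acid binding protein, was at 108 and 29.6 CPM with resveratrol, 28.2 and 28.5 CPM in obesity, against 579 CPM in control. Within the binding protein family Fabp5 went with Fabp4, at 22.4 and 133 CPM with resveratrol, 173 and 153 CPM in obesity, against 7.88 CPM in control. Fabp7, a binding protein gene of brain, had 0 counts in the control library and reached 2.36 and 4.47 CPM in resveratrol libraries 1 and 2, and 4.54 and 1.33 CPM in the obesity pair.

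PPAR-gamma is the nuclear receptor that drives fat cell formation, and Lpl, Cd36, Fabp4 and Angptl4 are textbook targets of PPARs. Of the list of PPAR regulators 11 of 15 were higher in obesity than in control. Pparg was at 20.9 and 144 CPM with resveratrol, 129 and 168 CPM in obesity, against 1.64 CPM in control, a log2 difference of obesity over control of 6.50 (SE 1.66). Rxrg, the gene of a partner receptor, was at 5.36 and 21.4 CPM with resveratrol, 24.2 and 26.7 CPM in obesity, against 0.139 CPM in control. The order of libraries for Pparg was that of Lpl, apart from resveratrol library 2 and obesity library 1, whose levels changed places. Ppard, another member of the receptor family, had no such order, at 30.8 and 41.6 CPM with resveratrol, 32.8 and 32.7 CPM in obesity, against 63.6 CPM in control.

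**Figure D4:**
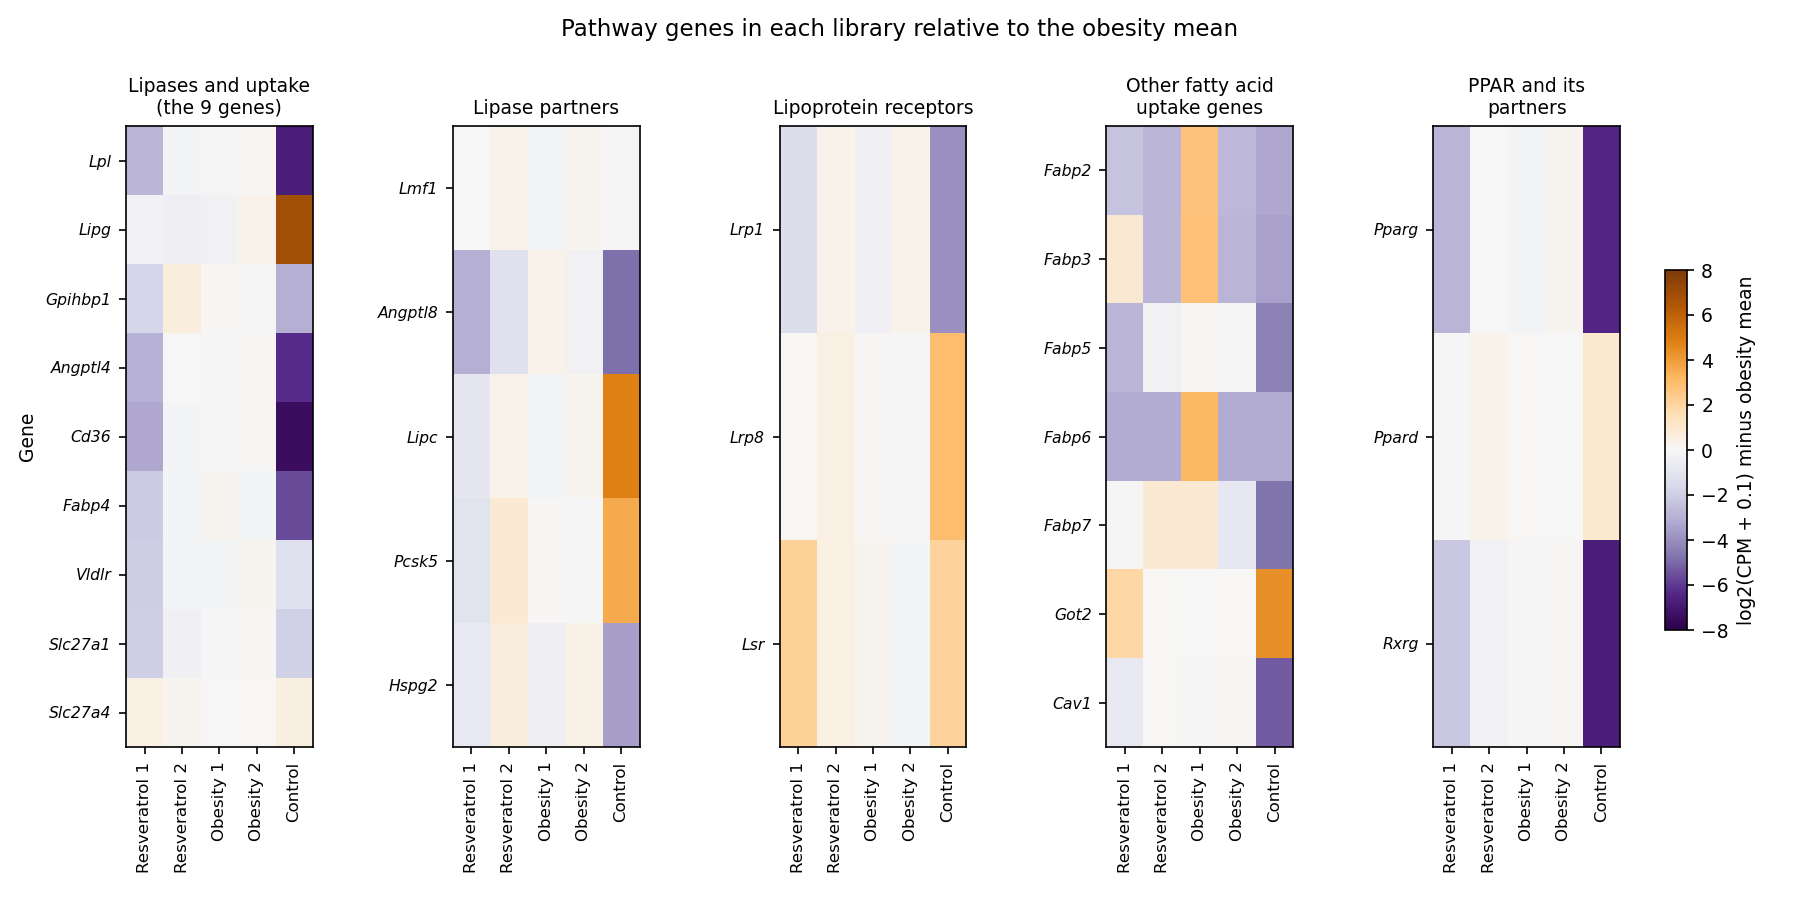
Heat map of log2(CPM + 0.1) minus the obesity mean for the 9 genes and for the pathway genes named in the text, with libraries in the order resveratrol, obesity and control. The control column is strongest for Cd36, Lpl, Rxrg and Pparg on the low side and for Lipg on the high side, and resveratrol library 1 is on the low side in paler shade for those 4.

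The genes most alike in pattern were sought among 10314 others with a mean of at least 10 CPM, by distance between centred log2 profiles over the 5 libraries. For Lpl these were Mrap at a distance of 0.267, Prr16 at 0.277 and Prkar2b at 0.305. Mrap, for example, was at 30.3 and 188 CPM with resveratrol, 200 and 238 CPM in obesity, against 2.27 CPM in control. For Gpihbp1 they were Aspn at 0.125, Trim16 at 0.153 and Adora2a at 0.282, the first 2 of them nearer than Mrap was to Lpl. For Lipg they were Ccno at 0.678, Klrb1c at 1.13 and Ap1s2 at 1.21. Ap1s2 was at 11.1 to 28.6 CPM in the resveratrol and obesity libraries and 2130 CPM in control. With 5 libraries, and the control library apart from the rest, such distances describe these libraries alone.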

How the data were processed

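The authors deposited raw whole-number counts per Ensembl gene in 5 columns, made with featureCounts on build GRCm39 after FastQC, per the submitters' processing notes. Per the labels, stranded poly-A libraries were sequenced as paired reads of 150 bases. Aligner, annotation release and strand setting: not given in the sources used here. No gene overlapping the 9 was annotated in GENCODE M21. Symbols were given to 65.7% of identifiers.

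Differences were fitted with edgeR 4.0.16 under R 4.3.3: filterByExpr by group (minimum count 10, minimum total 15), TMM, and robust quasi-likelihood tests over the 5 libraries together, with Benjamini-Hochberg adjustment over 24779 genes at 0.05. For the lone control library the spread of the other 2 groups was used. The SE is the absolute log2 difference divided by the square root of F. With 2 libraries in the resveratrol and obesity groups and 1 in control, a count of 0 calls does not show that groups were alike. Alternatives included DESeq2 1.42.0 and limma-voom (limma 3.58.1). Distances used log2(CPM + 0.1). The pathway genes named were the 3 with the smallest p per list and comparison, with a mean of at least 1 CPM, of which a selection is given. Lmf1, Fabp5, Ppard, Crisp1, Adipoq, Plin1 and Fabp3 were added after their values were seen. Some genes of the lists are counted but not reported here by name. The genes and lists were chosen with earlier results of these data known. Figures used Python 3.11.15 and matplotlib 3.10.9.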

Additional observations from a re-analysis of the deposited data

How the results depend on the processing

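Against 0 in every comparison of the main test, DESeq2 called 4529 genes in obesity over control, 224 in resveratrol over obesity and 3083 in resveratrol over control, and 6, 0 and 6 of the 9 genes. No filter on low counts gave 2575, 25 and 1671 genes, with Lipg and Fabp4, 2 of the 9, called in both comparisons with control. The share over all genes is not at hand for the fit without a filter. Limma-voom gave 80 genes and 1 of the 9 in resveratrol over control. Fitting only the groups compared gave 9269 genes and 8 of the 9 in obesity over control. Leaving out each library gave 0 to 9227 genes and 0 to 8 of the 9 in obesity over control, 0 to 4758 and 0 to 7 in resveratrol over obesity, and 0 to 7469 and 0 to 8 in resveratrol over control. The highest counts came without resveratrol library 1 for both comparisons with control and without resveratrol library 2 for resveratrol over obesity. Dropping the control library as well as resveratrol library 1, a choice made after seeing the data, gave 66 genes and 0 of the 9 in resveratrol over obesity. With a resveratrol library left out, or with obesity and control fitted alone, only the obesity pair gave the spread. How far that accounts for these differences was not tested.

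Of 342 log2 differences of the 9 genes under alternatives, 6 changed sign and 62 passed the threshold where the main value did not. Gpihbp1 in resveratrol over obesity was 0.68 without resveratrol library 1, also with the control library left out too (0.677), and ranged from -1.72 to 0.68 over the libraries left out, and Angptl4 from -2.97 to 8.1e-04. In resveratrol over control, Vldlr ranged from -0.79 to 1.08 and Slc27a1 from -0.0297 to 1.59, the low values being without resveratrol library 2. With a replicate block Vldlr was -0.42, and the block gave 0 calls in every comparison. Shared numbers do not pair these samples by any label, and deviations of libraries numbered 1 correlated at 0.282 across genes. CPM on library totals or median-ratio factors moved 7 of 54 group levels by at most 1.06-fold. Leaving out the marker with the highest mean CPM, Cidec or Cldn5, moved 9 of 36 ratios of marker shares by at most 1.17-fold. In control Cidec made only 23.5 CPM of the adipocyte sum of 384 CPM. Leaving out Pnpla2 or Cfd, which made more of it, was not tried. At 18 to 29 counts, Lipg outside the control library is known with low precision.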

Other observations

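Obesity library 1 stood apart from obesity library 2 in minor fatty acid binding protein genes. Fabp3, the heart and muscle type that brown fat also uses, had 7.04 and 0.467 CPM with resveratrol, 27.6 and 0.428 CPM in obesity, against 0.244 CPM in control. The intestinal gene Fabp2 was at 6.26 CPM in obesity library 1 and at 0.0909 CPM or less in the other libraries, and the ileal gene Fabp6 was at 7.67 CPM there with 0 counts elsewhere. The 6 brown adipocyte markers summed to 178 and 22.5 CPM in the pair of obesity libraries, with the uncoupling gene Ucp1 at 88.6 and 0.381 CPM. Of the 9 genes, Fabp4 was 1.26-fold higher in obesity library 1 than in obesity library 2, and Lpl, Cd36 and Angptl4 were higher in obesity library 2.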
